A study of Mus musculus with 14 samples.

Results

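The genes described here encode the matrix metalloproteinases (MMPs), the ADAMTS proteases and the tissue inhibitors of metalloproteinases (TIMPs), measured in RNA of the mouse carotid artery. They were taken by symbol alone (Mmp or Adamts followed by a number, and Timp1 to Timp4), which gave 46 of the 35275 genes in the deposited table. Of these, 23 were Mmp, 19 Adamts and 4 Timp genes, all protein coding and spread over 17 chromosomes. MMPs are zinc-dependent proteases made as inactive proenzymes. Their propeptide is removed by furin-like convertases, plasmin or other MMPs, and the active enzymes cut collagens, elastin and other proteins of the matrix. ADAMTS proteases are secreted enzymes with thrombospondin repeats that cleave proteoglycans, procollagens, von Willebrand factor and microfibril components. TIMPs bind the active site of MMPs, and TIMP3 also blocks several ADAMTS and ADAM proteases. In the arterial wall these enzymes are known for their part in remodelling, aneurysm and plaque.

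In the study, the lumen of carotid arteries from C57BL/6 mice, 10 weeks old and on standard chow, was flushed with 150 µL of the lysis reagent Qiazol. This gave an endothelial-enriched RNA fraction, called the flush here, and RNA was also extracted from the artery that remained, called the left-over wall (media and adventitia). The flush had 4 libraries of Poldip2-floxed littermate controls and 4 of Poldip2-EC-/- mice, the endothelial knockout. The left-over wall had 2 libraries labelled Poldip2-floxed littermate control and 4 labelled Poldip2-SMC-/-, the smooth muscle knockout. The labels do not name the Cre drivers, nor say whether the arteries of several mice were pooled or whether repeats were separate mice, so p-values measure the spread between these libraries, which may be partly technical. Poldip2 encodes polymerase delta interacting protein 2.

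Poldip2 itself was at 19.7 to 24.6 FPKM in the 4 flush controls and 9.02 to 15.9 FPKM in the 4 flush knockouts, where FPKM is the count per gene length and library total. In the left-over wall the order was opposite to the labels, with 13.9 to 14.8 FPKM in the 2 libraries labelled control and 31.9 to 39.7 FPKM in the 4 labelled knockout. The group mean that the authors' deposited table gives for smooth muscle controls was that of the 4 labelled knockout libraries in 14805 of 14805 genes at 1 FPKM or more. The mean it gives for smooth muscle knockouts was that of the 2 labelled control libraries in 1 of 14253 such genes, so that group matched neither labelled group as a whole. Every left-over genotype below is therefore given as labelled, and an exchange of those labels would turn the sign of each left-over knockout effect and change the size of each difference between the fractions' effects. Depth ran from 15019891 to 23287155 counts per library. Endothelial markers (10 genes, summed) were at 15592 to 17057 CPM (counts scaled to a common library total) in the flush and 339 to 1481 in the left-over wall, and 10 smooth muscle markers at 297 to 619 and 8579 to 10753. Fibroblast markers, at 1318 to 3635 CPM, and macrophage markers, at 31.6 to 816 CPM, were also present in the flush, against 26524 to 32500 and 5049 to 6647 CPM in the left-over wall.

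The comparison of the fractions asked where in the artery each of these genes was expressed. Most proteases were lower in the flush than in the left-over wall. In the median flush library the inhibitors Timp2, the most abundant of the 46, and Timp3 held 84.4% and 109% of their left-over level. Timp1 and Timp4 held 4.32% and 124%, so the inhibitors were not alike. The stromelysin Mmp3 and the transmembrane protease Mmp23 were among the 3 most abundant of the 46 in the left-over wall, and the median flush library held 1.29% and 1.51% of that level. The genes higher in the flush were few: Mmp28, Adamts10, Mmp24, Adamts1 and Timp3. The mean of the flush groups was set against the mean of the left-over groups over all 14 libraries, so the result does not depend on the left-over labels. In this contrast 43 genes of the families had enough counts to test (Mmp7, Mmp1b and Mmp25 had not), and edgeR's quasi-likelihood test called 38 at an adjusted p under 0.05. That is 88.4% of those tested, and 81% of all 21464 genes tested were called, so a call by itself sets these families little apart. The direction was less even: 33 of the 43 (76.7%) were lower in the flush and 5 (11.6%) higher, where 44.4% and 36.6% of all genes were. Their median log2 fold change was -1.95, and that of all genes -0.22. Low levels are a limit here: 22 of the 46 had a left-over mean under 1 FPKM. Marker lists for other tissues, also low in both fractions, had medians of -1.92 (skeletal muscle), -2.15 (cartilage) and -2.77 (thyroid). Those for neutrophils and for Schwann cells and nerve had -0.30 and -0.69. Such a median is therefore not particular to these families.

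The families differed in how their RNA was divided. The 4 Timp genes summed to 1298 to 1477 FPKM in the 8 flush libraries, which was 80.2 to 86.6% of the total over the 46 genes, and to 1577 to 1850 FPKM in the 6 left-over libraries, 53.8 to 58.8% of that total. The 23 Mmp genes summed to 85.8 to 195 FPKM in the flush (5.20 to 10.7%) and 1030 to 1295 FPKM in the left-over wall (34.7 to 39.5%). The 19 Adamts genes held 135 to 176 FPKM in the flush and 194 to 224 FPKM in the left-over wall. Few genes made up these sums. In the flush, 3 genes had a mean of at least 100 FPKM (Timp2, Timp3 and Adamts10), and 30 were under 1 FPKM. Among left-over means, 7 had at least 100 FPKM (Timp2, Mmp23, Mmp3, Timp3, Mmp2, Timp1 and Adamts2), and 22 were under 1 FPKM. Mmp7, the matrilysin of epithelia, had no count in any flush library, and 3 counts, the most that a 0 allows at 95% confidence, are 0.129 to 0.164 CPM in these libraries for counting error alone.

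**Figure D1:**
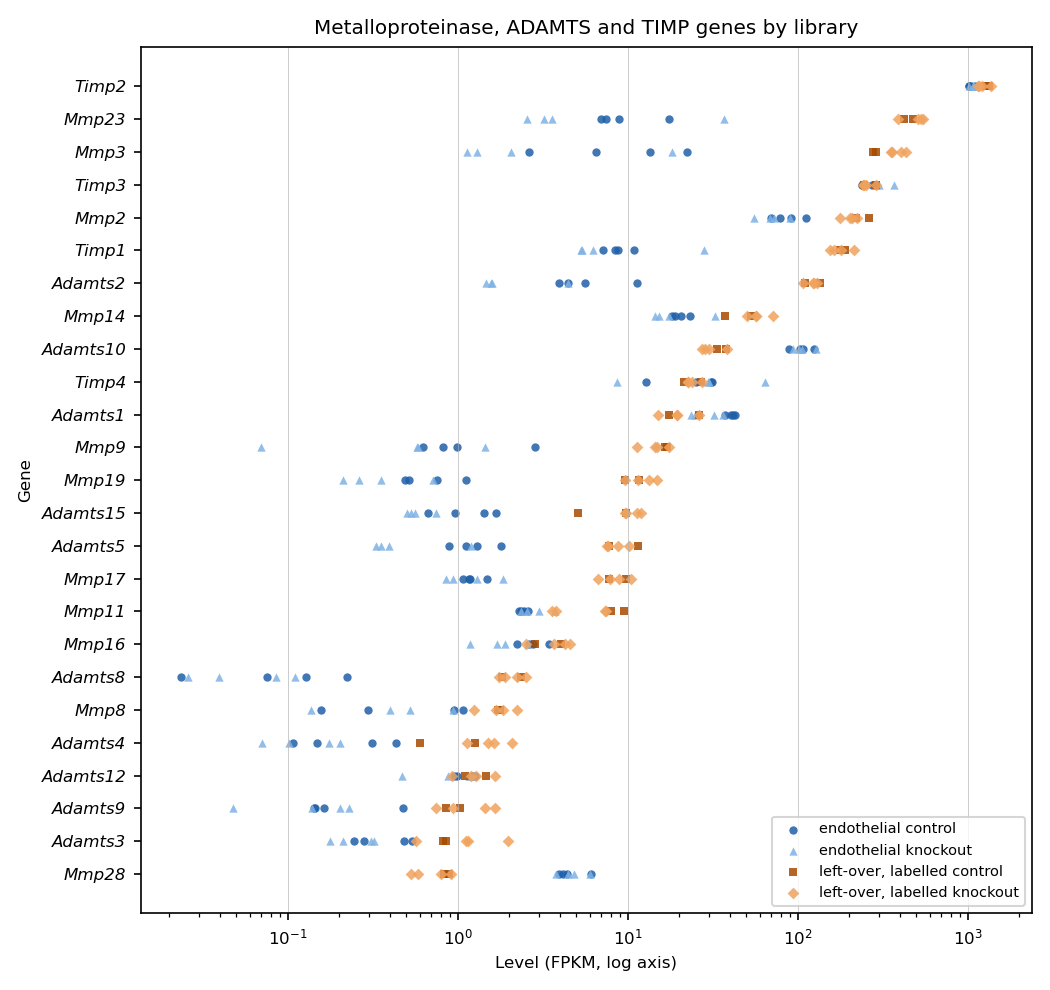
Level of each gene with a mean of at least 1 FPKM in one fraction, in every library (log axis, FPKM). Circles and triangles are flush controls and knockouts, squares and diamonds left-over libraries labelled control and knockout; Timp2 is the highest gene in all libraries, and the symbols of the fractions lie farthest apart for Mmp23, Mmp3 and Adamts2.

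Among the inhibitors, Timp2, which both blocks MMPs and helps MMP14 to activate pro-MMP2, was the most abundant gene of the families in either fraction. It was at 1024, 1024, 1047 and 1107 FPKM in flush controls 1 to 4 and 1069.9, 1081, 1093 and 1021 in flush knockouts 1 to 4, and at 1334 and 1279.5 FPKM in labelled controls 1 and 2 and 1146, 1160.4, 1383 and 1223 in labelled knockouts 1 to 4 of the left-over wall. All left-over libraries were above all flush libraries in FPKM. Its log2 fold change, scaled by TMM, was 0.17 (SE 0.08) and was not called (edgeR adjusted p = 0.0692), and with library size as the only scaling it was -0.26 (edgeR adjusted p = 0.00116). That scaling moved the median of all genes by -0.43, more than the Timp2 difference itself. Timp3, the inhibitor that stays bound to the matrix, was at 238 to 370.2 FPKM (median 286) in the flush and 243 to 290.0 FPKM (median 251) in the left-over wall, and the libraries overlapped. Its log2 fold change was 0.53 (SE 0.09; edgeR adjusted p = 6.88e-05), and it was not called with library size only (0.11, adjusted p = 0.231) or in flush control against labelled control (0.27, adjusted p = 0.104). Timp4 was at 8.62 to 64.2 FPKM (median 30.0) in the flush and 21.4 to 27.4 FPKM (median 23.3) in the left-over wall. It was low in flush knockout 1 and high in flush knockout 4, and was not called (log2 fold change 0.68, SE 0.39; edgeR adjusted p = 0.125).

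Timp1, the inducible secreted inhibitor, was the 1 inhibitor called lower in the flush. It was at 8.80, 7.18, 11.0 and 8.41 FPKM in the flush controls and 28.2, 6.25, 5.31 and 5.42 FPKM in the flush knockouts. In the left-over wall it was at 177 and 190.1 FPKM in the labelled controls and 165, 215, 156 and 181 FPKM in the labelled knockouts. The fractions did not overlap, and flush knockout 1 was the highest of the flush libraries. The log2 fold change was -3.76 (SE 0.38; edgeR adjusted p = 4.20e-06).

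The gelatinases, which digest denatured collagen and basement membrane, were lower in the flush to unequal degrees. Mmp2 was at 55.2 to 113 FPKM (median 75.7) in the flush and 177 to 265 FPKM (median 216) in the left-over wall, a log2 fold change of -1.06 (SE 0.14; edgeR adjusted p = 3.05e-06), and was the fourth most abundant of the 46 in the flush. Mmp9 was at 0.0700 to 2.84 FPKM (median 0.719) in the flush and 11.4 to 17.5 FPKM (median 15.8) in the left-over wall, with a log2 fold change of -3.64 (SE 0.48; edgeR adjusted p = 3.31e-05). Neither gene overlapped between the fractions. Mmp9 is a product of neutrophils and macrophages as well as wall cells. Summed neutrophil markers were at 1.73 to 25.997 CPM in the flush and 15.1 to 38.9 CPM in the left-over wall, with the defining gene Elane at 0 in some libraries, and macrophage markers were as given above. Their part in the Mmp9 values was not tested.

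The stromelysins, collagenases and metalloelastase lie mostly in one gene cluster. It holds 10 of the 23 Mmp genes within 427.1 kb of chromosome 9 (chr9:7272514-7699585, GRCm38), in the order Mmp13, Mmp12, Mmp1b, Mmp3, Mmp1a, Mmp10, Mmp8, Mmp27, Mmp20 and Mmp7. Only Mmp3, a stromelysin that cleaves proteoglycans and activates other pro-MMPs, was abundant. It was at 278 and 290.0 FPKM in the left-over libraries labelled control and 360.3, 407, 434 and 354 FPKM in those labelled knockout, a mean of 354 ± 62.0 (SD, n = 6). In the flush it was at 13.5, 6.52, 22.3 and 2.63 FPKM in the controls and 18.3, 2.05, 1.14 and 1.30 FPKM in the knockouts. Flush controls 1 and 3 and knockout 1 were the highest of the flush, and all 8 were below every left-over library. The log2 fold change was -4.95 (SE 0.74; edgeR adjusted p = 1.08e-04), and DESeq2 gave no adjusted p for it. The other 9 genes of the cluster had left-over means of 0.0723 to 1.75 FPKM, and the highest single value among them was 2.23 FPKM in the left-over wall and 1.07 in the flush. Mmp8, the neutrophil collagenase, had the highest mean of these 9. Mmp13, the main collagenase of rodents, was at 0 to 0.140 FPKM (median 0.0478) in the flush and 0.535 to 0.911 FPKM (median 0.576) in the left-over wall (log2 fold change -3.13, SE 0.44; edgeR adjusted p = 7.51e-06). All 8 cluster genes tested were called lower in the flush, where 44.4% of all genes tested were. Mmp8, Mmp12 and Mmp20 were not called in pairs by description number (edgeR adjusted p = 0.0615, 0.200 and 0.0577). Mmp8 and Mmp12 were also not called in flush control against labelled control (edgeR adjusted p = 0.134 and 0.110) or labelled knockout (0.0589 and 0.152). Mmp1a and Mmp27 had too few counts to test in these settings. Mmp27, next to Mmp3 in size of change (-4.43), had at most 1 count in any flush library, so its fold depends on the prior count. Mmp12 and Mmp1b overlap by 1261 bases on opposite strands and no source used here says whether the libraries were stranded, so reads in that stretch cannot be assigned.

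**Figure D2:**
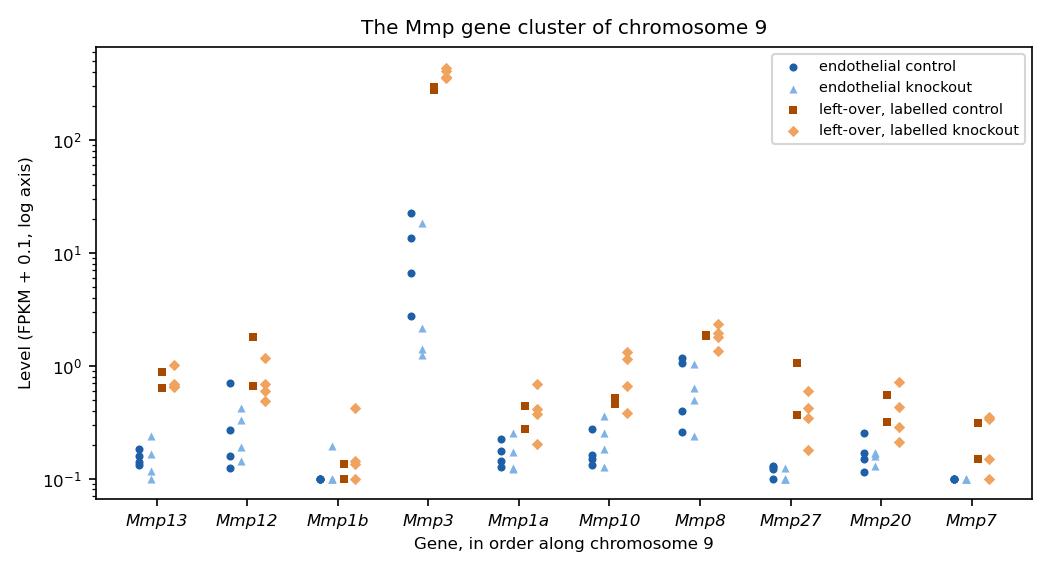
Level of the 10 Mmp genes of the chromosome 9 cluster in every library, in their order along the chromosome (log axis, FPKM plus 0.1; symbols as in the plot of levels). Mmp3 stands at 277.5 to 434.3 FPKM in the left-over libraries, and no other gene of the cluster exceeds 2.23 FPKM in any library.

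The promoters of the cluster differed in letters from those of the other members. RefSeq windows of GRCm38.p6, from 250 bases before to 50 after the gene start, were matched by symbol for 32 of the 46 genes (35 windows), including all 10 of the cluster, and 11 motifs were searched on both strands. The AP-1 motif TGANTCA was in the windows of 8 of the 10 cluster genes and of 0 of the 22 others, and in 7.81% of all 32851 windows. The TATA box TATAAA was in 9 of the 10, in 2 of the 22 others (Adamts1 and Mmp21), and in 13.6% of all windows. The GC box GGGCGG was in 0 of the 10, in 18 of the 22 others, and in 35.7% of all windows. The windows of Mmp3, its neighbour Mmp10 and Mmp13 are shown as examples of the cluster with unequal levels. Those of Mmp28 and Adamts1 are shown as genes higher in the flush. Each is 5′ to 3′ on the gene's strand, and capitals mark AP-1 motifs, TATA boxes and GC boxes on either strand.
Mmp3 (chr9:7445572-7445871, plus strand): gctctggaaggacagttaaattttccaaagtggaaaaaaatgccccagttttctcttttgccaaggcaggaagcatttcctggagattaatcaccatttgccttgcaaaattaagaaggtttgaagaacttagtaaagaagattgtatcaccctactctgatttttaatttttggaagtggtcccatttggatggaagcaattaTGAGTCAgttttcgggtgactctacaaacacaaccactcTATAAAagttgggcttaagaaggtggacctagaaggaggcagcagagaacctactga
Mmp10 (chr9:7502092-7502391, plus strand): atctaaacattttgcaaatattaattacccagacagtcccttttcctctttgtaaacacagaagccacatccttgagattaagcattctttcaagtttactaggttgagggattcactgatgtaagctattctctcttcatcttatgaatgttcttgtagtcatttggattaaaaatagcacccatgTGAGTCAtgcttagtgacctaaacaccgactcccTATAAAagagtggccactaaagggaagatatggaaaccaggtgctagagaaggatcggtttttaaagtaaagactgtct
Mmp13 (chr9:7272264-7272563, plus strand): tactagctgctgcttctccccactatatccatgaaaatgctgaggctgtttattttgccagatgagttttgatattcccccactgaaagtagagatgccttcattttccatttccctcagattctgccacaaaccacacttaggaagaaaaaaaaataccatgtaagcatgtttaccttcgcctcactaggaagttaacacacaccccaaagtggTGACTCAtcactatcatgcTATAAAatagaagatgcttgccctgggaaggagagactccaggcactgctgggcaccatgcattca
Mmp28 (chr11:83462991-83463290, minus strand): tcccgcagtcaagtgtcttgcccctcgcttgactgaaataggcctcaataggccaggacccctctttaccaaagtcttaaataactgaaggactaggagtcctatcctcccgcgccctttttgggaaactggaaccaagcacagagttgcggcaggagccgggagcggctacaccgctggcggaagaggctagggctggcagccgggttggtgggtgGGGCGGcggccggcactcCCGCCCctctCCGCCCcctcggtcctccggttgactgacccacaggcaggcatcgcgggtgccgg
Adamts1 (chr16:85803064-85803363, minus strand): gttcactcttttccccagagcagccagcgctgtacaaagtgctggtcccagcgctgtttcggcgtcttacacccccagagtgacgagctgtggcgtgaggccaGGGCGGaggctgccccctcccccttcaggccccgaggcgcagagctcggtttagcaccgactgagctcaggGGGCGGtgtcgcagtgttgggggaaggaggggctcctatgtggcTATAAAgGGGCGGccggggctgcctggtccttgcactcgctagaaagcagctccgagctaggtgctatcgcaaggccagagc

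In these windows the AP-1 motif began at -46 in Mmp3, -63 in Mmp10 and -35 in Mmp13 relative to the annotated start, and a TATA box followed at -7, -29 and -16. Mmp10 and Mmp13 carried the same pair of motifs as Mmp3, at a left-over mean of 0.645 ± 0.386 and 0.654 ± 0.155 FPKM (SD, n = 6) against 354. Mmp28 had GC boxes at -33, -15 and -5 and neither other motif, and Adamts1 had a TATA box at -32 with GC boxes at -147, -76 and -25. The ETS motif CCGGAAGT, the heat shock element, the NF-kB motif and the CRE motif TGACGTCA were in no window of these genes, against 3.89%, 0.603%, 0.411% and 1.79% of all windows. The E-box CACGTG was in 2 of the 32 genes (7.15% of all windows), CCAAT in 9 (37.4%), the KLF motif CACCC in 27 (57.5%) and the SMAD motif CAGAC in 17 (49.6%). These matches are of letters only.

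Mmp11, which is stromelysin 3 and lies outside the cluster on chromosome 10, was lower in the flush by less than Mmp3. It was at 2.31, 2.37, 2.46 and 2.59 FPKM in the flush controls and 3.74, 2.57, 3.02 and 2.36 FPKM in the flush knockouts. In the left-over wall it was at 7.98 and 9.54 FPKM in the labelled controls and 3.77, 3.58, 7.51 and 7.35 FPKM in the labelled knockouts. The lowest left-over libraries met the highest flush library, and the log2 fold change was -0.97 (SE 0.19; edgeR adjusted p = 2.10e-04). It was -1.51 in flush control against labelled control, and Mmp11 was not called in pairs by description number (-0.59, adjusted p = 0.0876).

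Of the 6 membrane-type MMPs, which act at the cell surface, 5 could be tested, of which 3 were lower in the flush and 1 higher. Mmp14, the main cell-surface activator of pro-MMP2, was at 14.4 to 32.7 FPKM (median 18.6) in the flush and 37.6 to 71.8 FPKM (median 55.0) in the left-over wall (log2 fold change -0.94, SE 0.19; edgeR adjusted p = 4.50e-04). Flush knockout 1 was its highest flush library. Mmp17, anchored by glycosylphosphatidylinositol and known in aortic smooth muscle, had a mean of 1.23 ± 0.319 FPKM in the flush (SD, n = 8) and 8.58 ± 1.41 in the left-over wall (SD, n = 6), a log2 fold change of -2.37. Mmp24 was called higher in the flush (log2 fold change 1.24, SE 0.46; edgeR adjusted p = 0.0213) at under 1 FPKM in every library, with overlap. It was not called with library size only (0.81, adjusted p = 0.132), in pairs by description number (0.85, adjusted p = 0.299), or in flush control against labelled control (1.39, adjusted p = 0.152) or labelled knockout (0.57, adjusted p = 0.373). Mmp15 was lower (-1.10; edgeR adjusted p = 0.0393) but was not called in flush control against labelled control (-0.41, adjusted p = 0.537). Mmp16 was not called (-0.25, SE 0.18; edgeR adjusted p = 0.200).

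Among the remaining MMPs, Mmp23 and Mmp28 moved in opposite directions. Mmp23, a type II transmembrane protease, was second to Timp2 among the 46 genes in the left-over wall. It was at 477 and 424 FPKM in the labelled controls and 389.7, 511, 531 and 549 FPKM in the labelled knockouts. In the flush it was at 8.96, 7.50, 17.6 and 7.01 FPKM in the controls and 36.7, 2.54, 3.58 and 3.20 FPKM in the knockouts, where knockout 1 was 11.8 times the mean of knockouts 2 to 4. The log2 fold change was -5.02 (SE 0.66; edgeR adjusted p = 4.13e-05). Mmp19, also called RASI-1, was at 0.210 to 1.12 FPKM (median 0.504) in the flush and 9.59 to 14.9 FPKM (median 11.6) in the left-over wall (-4.02, SE 0.24; edgeR adjusted p = 1.94e-09). Mmp28, or epilysin, a protease of epithelia, was the gene of the families most raised in the flush. It was at 4.17, 3.94, 6.13 and 4.41 FPKM in the flush controls and 4.84, 4.46, 3.78 and 5.97 FPKM in the flush knockouts. In the left-over wall it was at 0.833 and 0.886 FPKM in the labelled controls and 0.530, 0.581, 0.797 and 0.914 FPKM in the labelled knockouts. The fractions did not overlap, and the log2 fold change was 3.02 (SE 0.20; edgeR adjusted p = 5.51e-10).

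The procollagen N-proteinases, which trim the amino end of fibrillar procollagens, were all lower in the flush, 3 of 3. Adamts2 was at 5.64, 4.48, 11.4 and 3.97 FPKM in the flush controls and 4.47, 1.57, 1.58 and 1.47 FPKM in the flush knockouts, and at 108 to 136 FPKM (median 123) in the left-over wall. Flush control 3 was the highest flush library, and the log2 fold change was -4.58 (SE 0.35; edgeR adjusted p = 2.43e-07). Adamts14 was at 0 to 0.137 FPKM (median 0.0466) and 0.459 to 0.641 FPKM (median 0.524) (-3.02; edgeR adjusted p = 1.10e-05), and Adamts3, which also processes the lymphatic growth factor VEGF-C, had a log2 fold change of -1.24 and was not called in flush control against labelled control (-0.78, adjusted p = 0.0719).

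The proteoglycanases, which cut versican, aggrecan and related proteoglycans, were lower in the flush in 6 of 7, and the exception was Adamts1. Adamts1, a protease that can restrain VEGF and is known in endothelium, was at 41.6, 40.6, 37.3 and 43.0 FPKM in the flush controls and 23.5, 32.2, 36.5 and 25.1 FPKM in the flush knockouts. Left-over libraries had it at 17.6 and 26.1 FPKM in the labelled controls and 26.4, 19.4, 19.6 and 15.1 FPKM in the labelled knockouts. All flush controls were above all left-over libraries, the flush knockouts overlapped them, and the log2 fold change was 1.15 (SE 0.13; edgeR adjusted p = 7.51e-07), or 0.72 with library size only. Its neighbour on chromosome 16, Adamts5, the main aggrecanase of mouse cartilage, went the other way. It was at 0.330 to 1.80 FPKM (median 1.01) in the flush and 7.57 to 11.5 FPKM (median 8.26) in the left-over wall (-3.00, SE 0.30; edgeR adjusted p = 2.09e-06), although both genes lie within 107.3 kb. The neighbours Adamts15 and Adamts8, within 64.7 kb of chromosome 9, were both lower. Adamts15 was at 0.504 to 1.68 FPKM (median 0.712) in the flush and 5.10 to 12.0 FPKM (median 9.80) in the left-over wall (-3.00; edgeR adjusted p = 1.30e-08). Adamts8 was at 0.0237 to 0.224 FPKM (median 0.0806) and 1.74 to 2.53 FPKM (median 2.07) (-4.17; edgeR adjusted p = 7.26e-09). Adamts4 was at 0.0709 to 0.437 FPKM (median 0.162) in the flush and 0.604 to 2.09 FPKM (median 1.39) in the left-over wall, with a log2 fold change of -2.30.

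The pair associated with fibrillin microfibrils was split. Adamts10, which binds fibrillin and is mutated in Weill-Marchesani syndrome, was the third most abundant of the 46 in the flush, at 104, 89.6, 108 and 125 FPKM in the controls and 128, 102, 94.0 and 106 FPKM in the knockouts. Its left-over levels were 37.7 and 33.7 FPKM in the labelled controls and 28.6, 27.3, 38.4 and 30.0 FPKM in the labelled knockouts. The fractions did not overlap, and the log2 fold change was 2.11 (SE 0.13; edgeR adjusted p = 2.68e-10). Its close relative Adamts6 was lower in the flush, at -1.41 (edgeR adjusted p = 2.30e-05). Of the pair that cleaves cartilage oligomeric matrix protein, Adamts7 was lower (-2.03) and Adamts12 was not called (0.09; edgeR adjusted p = 0.680). All 5 of the other ADAMTS genes were lower, among them Adamts13, the protease of von Willebrand factor (-1.89), Adamts16 (-2.12) and Adamts17 (-2.70), and none of the 5 reached 1 FPKM in any library.

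Over all the genes of the families, 31 had no overlap in FPKM between the 8 flush and the 6 left-over libraries, 29 of them lower in the flush and 2, Mmp28 and Adamts10, higher. That is 72.1% of the 43 tested, and 51.6% of all genes tested did not overlap (34.1% lower and 17.6% higher). FPKM is scaled by library size only. Timp2 is among the 29, although its log2 fold change scaled by TMM was 0.17 and was not called. With library size only, 39 were called, 3 of them higher (Mmp28, Adamts10 and Adamts1) and 36 lower, and the split over all genes moved to 25.6% higher and 55.5% lower. In the authors' deposited table, smooth muscle control against endothelial control had an adjusted p under 0.05 for 36 of the 46 genes, 32 of them higher in the smooth muscle group, which is the labelled knockout libraries, and 4 lower. There 57% of all 27729 genes were called.

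**Figure D3:**
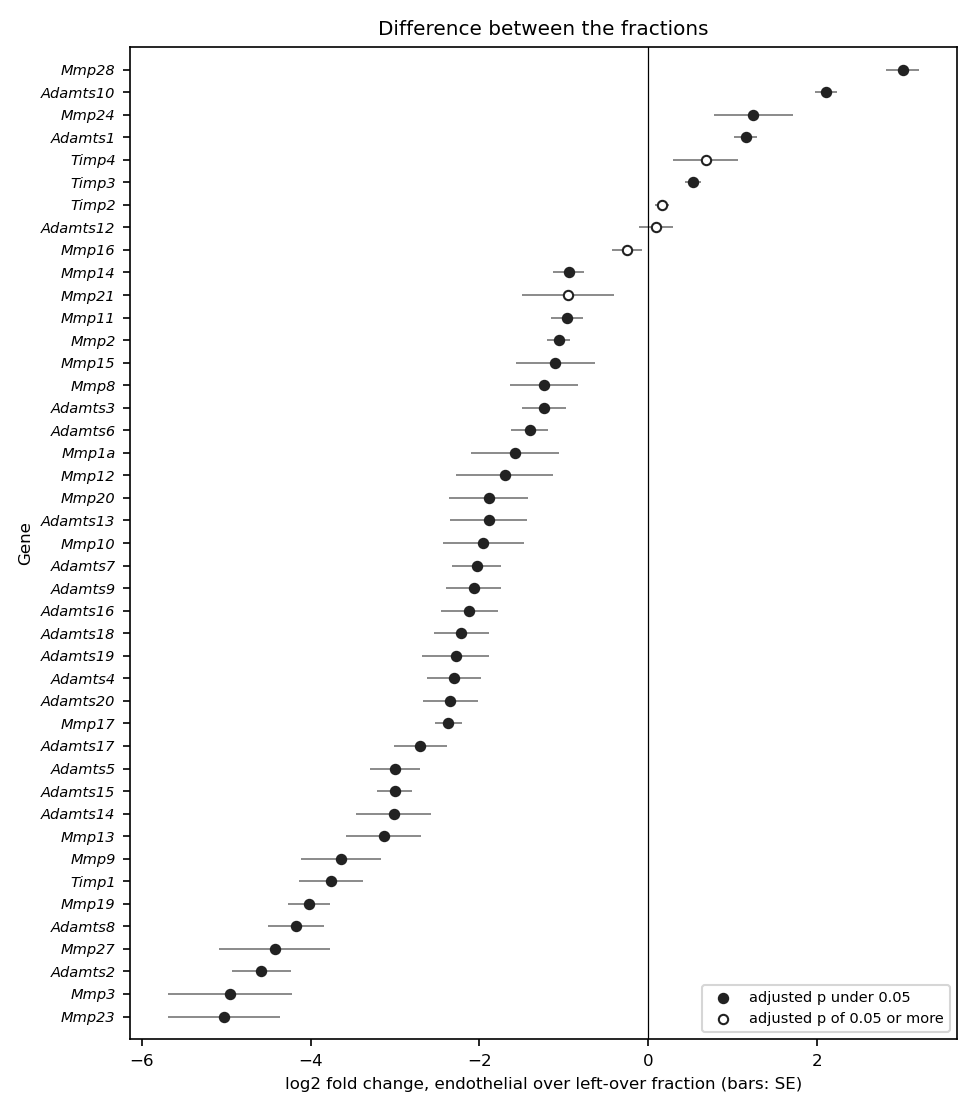
Log2 fold change of each tested gene of the families, flush over left-over wall, with its SE (14 libraries, scaled by TMM). Filled points passed an adjusted p under 0.05: 5 lie to the right of 0, up to Mmp28 at 3.02, and 33 to the left, down to Mmp23 at -5.02.

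The lower genes of the flush were not lowered by one common ratio. Expressed as a percent of the left-over mean, the flush libraries held 0.53 to 7.64% of Mmp23 (median 1.51%), 0.32 to 6.31% of Mmp3 (1.29%), 1.20 to 9.33% of Adamts2 (3.46%) and 2.94 to 15.6% of Timp1 (4.32%). The same libraries held, in CPM, 4.55 to 12.5% of the summed fibroblast markers (median 7.36%), 0.53 to 13.7% of the macrophage markers (1.68%) and 2.97 to 6.18% of the smooth muscle markers (4.00%). Mmp2, at 25.5 to 52.1% (median 34.9%), Mmp14, at 26.4 to 59.97% (34.1%), and Mmp11, at 34.9 to 56.5% (38.0%), lay above those marker sums in all 8 libraries. Mmp17, at 10.0 to 21.6% (13.7%), did so too. Timp2, at 81.4 to 88.3%, Timp3, at 91.0 to 141%, Adamts1, at 113 to 207%, and Adamts10, at 275 to 392%, lay higher still. Endothelial markers were at 1921 to 2101%. Neutrophil markers were at 6.87 to 103% and Schwann and nerve markers at 17.8 to 90.9%, ranges that overlap those of Mmp2, Mmp14 and Mmp11. All 10 endothelial markers were called higher in the flush, and 10 of 10 smooth muscle, 9 of 10 fibroblast, 10 of 10 macrophage and 10 of 10 adipocyte markers lower. The fibroblast markers were uneven, with log2 fold changes from -5.53 to -0.22. In mean CPM the fibroblast sum of the flush was 7.60% of the left-over sum, and the median fibroblast marker 4.44%. The sum is therefore not a measure of fibroblasts alone. In whole-fraction RNA, fewer cells of a type and less RNA per cell cannot be told apart. The part of other cells in the flush values of each gene was not tested.

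Genes low in the flush were often highest in the same flush libraries. Of the 12 genes called lower that had a left-over mean of at least 5 FPKM, 5 were highest of the flush in knockout 1 and 6 in control 3. These libraries had the highest and the next highest fibroblast and macrophage marker sums. The 5 were Mmp23, Timp1, Mmp14, Mmp17 and Mmp11. No such count was made over all genes, so it cannot be called particular to these families. Knockout 1 exceeded the mean of knockouts 2 to 4 by a factor of 12.2 for Mmp3, 11.8 for Mmp23, 4.98 for Timp1, 3.32 for Adamts5 and 2.90 for Adamts2. The same ratio was 14.98 for the macrophage marker sum and 2.66 for the fibroblast marker sum. It was 2.08 for Mmp14, 1.79 for Mmp17, 1.41 for Mmp11, 1.38 for Mmp2, 1.00 for Timp2 and 0.75 for Adamts1.

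**Figure D4:**
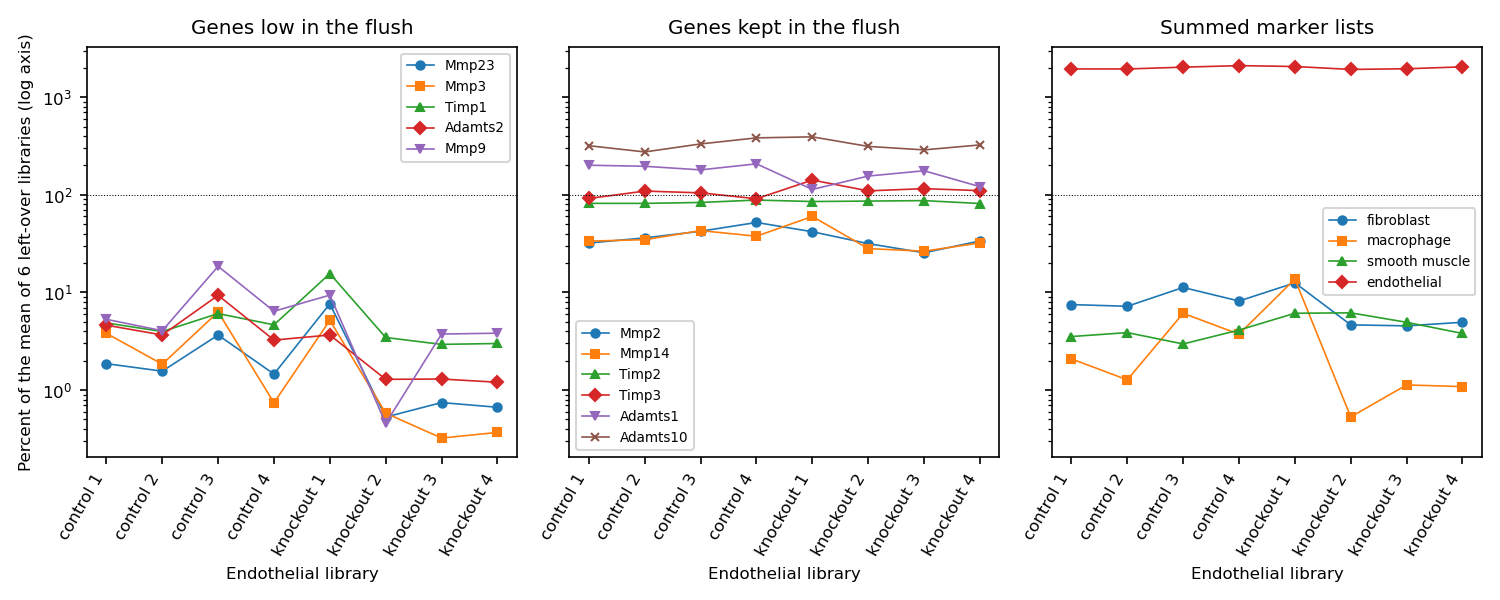
Level in each of the 8 flush libraries as a percent of the mean of the 6 left-over libraries (log axis; dotted line, 100%), for genes low in the flush, for genes kept there and for summed marker lists. Mmp23, Mmp3, Timp1 and the fibroblast and macrophage sums are all highest in control 3 and knockout 1, and Timp2 stays between 81.4 and 88.3% in all 8.

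Genes that activate, inhibit or are cut by these proteases were also divided between the fractions. Of all genes tested, 36.6% were called higher in the flush and 44.4% lower, so a division of calls by itself sets a short list little apart. Of 12 pro-MMP activators and plasminogen system genes, 4 were higher in the flush and 4 lower (median -0.18, all genes -0.22). The urokinase receptor gene Plaur (2.65) and the convertase genes Pcsk7 (1.62) and Furin (1.09) were higher, and Serpine2, which encodes the protease inhibitor nexin 1, was lower, at -5.06. Of 8 further inhibitors and clearance genes, 6 were lower (median -1.29). Lrp1, the receptor that takes up protease-inhibitor complexes, was at -2.48, while Reck, a membrane-anchored MMP inhibitor, was higher at 1.71 and Spock3 was not called (-0.20, adjusted p = 0.430). ADAMTS-like genes, which lack the protease domain, were lower in 5 of 7, with Adamtsl2 at -4.35 and Thsd4 at -3.36, and higher for Adamtsl4 (1.05) and Papln (1.23). Membrane ADAM proteases split evenly, 4 higher and 4 lower of 9. The shedding proteases Adam10 (3.59), Adam17 (1.88) and Adam15 (1.79) were higher, and Adam19 was lower (-2.76). Of 14 tested substrates 9 were lower and 4 higher. Thbs1 (5.51), which encodes thrombospondin 1, and Vwf (5.05), itself an endothelial marker, were higher, as were Eln (2.29), which encodes elastin, and Col4a1 (2.40), a basement membrane collagen chain. Versican (Vcan) was lower at -2.11. Each of these values was from the same edgeR fit, with an adjusted p under 0.05 except for Spock3.

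The endothelial knockout comparison asked whether these genes differed in the flush of the endothelial Poldip2 knockouts. None of the 28 genes of the families tested was called (edgeR, 8 libraries; smallest adjusted p 0.638), and 0% of all 14800 genes were (smallest edgeR adjusted p 0.227). Poldip2 itself was therefore not called, although its FPKM did not overlap between these groups. The lack of a call does not show the lack of a difference. DESeq2 called 68 genes (0.459%), none of them in these families. The authors' deposited table called 56 genes, 0.378% of 14831, and 0 of the 27 genes of the families that it gives an adjusted p for. At an unadjusted p under 0.05, there were 6 genes of the families (21.4% of 28, where 6.2% of all genes tested did), 5 lower and 1 higher in the knockouts. Their median log2 fold change over all 28 was -0.32, and that of all genes 0.01.

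Adamts15 had the smallest p. It was at 1.43, 0.967, 1.68 and 0.674 FPKM in controls 1 to 4 and 0.749, 0.533, 0.504 and 0.565 FPKM in knockouts 1 to 4. Knockout 1 overlapped control 4, and the log2 fold change was -1.03 (SE 0.28; edgeR adjusted p = 0.638). Adamts1, given above, was lower in every knockout than in every control, 40.6 ± 2.43 against 29.3 ± 6.10 FPKM (SD, n = 4 each), with a log2 fold change of -0.48 (SE 0.14; edgeR adjusted p = 0.667). Its knockout values were lowest in knockouts 1 and 4. 

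Adamts2 was lower in knockouts 2 to 4 than in any control, and knockout 1 lay among the controls (log2 fold change -1.53, SE 0.49; edgeR adjusted p = 0.718). Adamts5 had the same arrangement, at 1.12, 1.29, 1.80 and 0.892 FPKM in the controls and 1.20, 0.330, 0.397 and 0.355 FPKM in the knockouts (-1.20, SE 0.43; edgeR adjusted p = 0.767). Mmp16, a membrane-type protease, was at 2.64, 2.76, 3.45 and 2.24 FPKM in the controls and 2.58, 1.70, 1.18 and 1.89 FPKM in the knockouts, and again knockout 1 overlapped the controls (-0.61, SE 0.22; edgeR adjusted p = 0.767). The gene on the other side was Timp3, at 239.9, 286, 274 and 238 FPKM in the controls and 370.2, 287, 302 and 288 FPKM in the knockouts. All 4 knockouts were above all controls, knockout 1 by the most, and the log2 fold change was 0.25 (SE 0.10; edgeR adjusted p = 0.790). Adamts1, lower, and Timp3, higher, were the 2 of 28 genes (7.14%) without overlap, where 4.1% of all genes had none (1.46% lower and 2.64% higher).

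Marker sums of other cells also differed between the flush libraries. The fibroblast sum was 2091 to 3258 CPM in the flush controls, 3635 in knockout 1 and 1318 to 1435 in knockouts 2 to 4. The macrophage sum was 75.8 to 364 CPM in the controls and 31.6 to 816 in the knockouts. The smooth muscle sum lay the other way, at 297 to 412 CPM in the controls and 381 to 619 in the knockouts, with Myh11, the smooth muscle myosin heavy chain gene, at a log2 fold change of 1.63 (edgeR adjusted p = 0.270). Adamts1 was lowest in knockout 1 (23.5 FPKM), where the fibroblast sum was highest. It was next lowest in knockout 4 (25.1 FPKM), where that sum was 1435 CPM. Without flush control 3 and knockout 1, the libraries highest in fibroblast markers, a setting chosen after seeing the data, edgeR called 97 genes, 94 of them lower. Among them were Adamts2 (-1.59, adjusted p = 0.00187), Adamts5 (-1.59, adjusted p = 0.00611) and Mmp23 (-1.31, adjusted p = 0.0129), which the median flush library held at 3.46%, 11.3% and 1.51% of their left-over means. Without knockout 1 alone, Adamts5 was called (-1.82, adjusted p = 0.0404) among 20 genes. The part of fibroblast, macrophage or smooth muscle content in these differences was not tested.

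**Figure D5:**
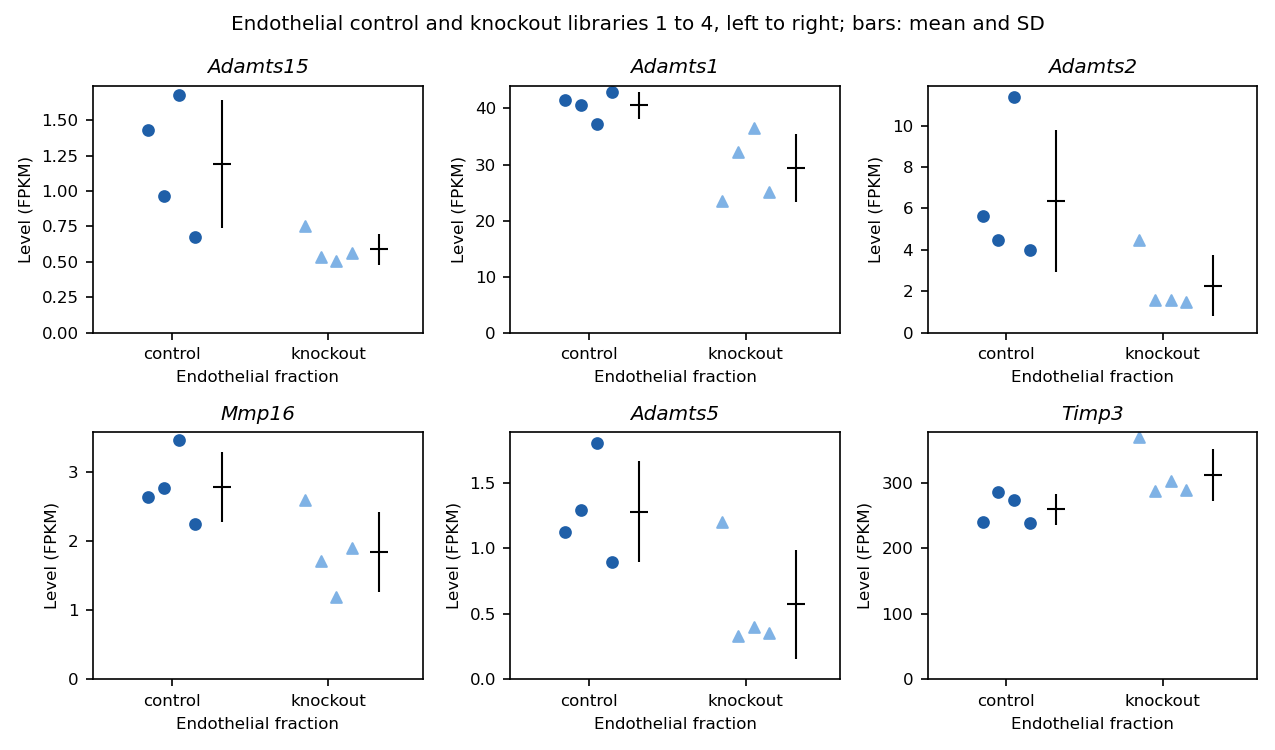
Level in FPKM of the 6 genes with the smallest p in the flush, in controls 1 to 4 and knockouts 1 to 4 from left to right, with the mean and SD beside them. Adamts1 and Timp3 show no overlap, and for Adamts15, Adamts2, Mmp16 and Adamts5 knockout 1 is the highest knockout and overlaps the controls.

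The other genes differed in how widely the flush libraries spread. Timp1, Mmp3 and Mmp23 had SEs of 0.55, 1.06 and 0.93 on the log2 scale. In each of them knockout 1 stood far above knockouts 2 to 4, and the Mmp3 controls also ranged from 2.63 to 22.3 FPKM. Timp2 was measured more tightly, at 0.00 (SE 0.09), as were Adamts10 at -0.01 (SE 0.13) and Mmp28 at 0.01 (SE 0.19). None of the pathway genes above was called, and the smallest p among them was that of the substrate Fbn1, which encodes fibrillin 1, with a log2 fold change of -0.98 (SE 0.14; edgeR adjusted p = 0.227). Lrp1 came next, at -1.38 (edgeR adjusted p = 0.417).

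In the left-over wall, labelled knockout was set against labelled control in 6 libraries. None of the 43 genes of the families tested was called (edgeR; smallest adjusted p 0.225), where 0.792% of all 20442 genes were. DESeq2 called 436 genes (2.13%) and none of these families. The authors' deposited table called 513 genes, 3.68% of 13948, and 0 of the 33 genes of the families that it gives an adjusted p for, but its smooth muscle groups are not these 2 groups, as given above. At an unadjusted p under 0.05 there were 2 (4.65% of 43, where 10.4% of all genes tested had such a p). Adamts6 was at 1.36 and 1.43 FPKM in the labelled controls and 0.861, 0.828, 0.746 and 0.767 FPKM in the labelled knockouts, with no overlap (-0.84, SE 0.27; edgeR adjusted p = 0.225). Mmp3, given above, was higher in every labelled knockout than in either labelled control (0.41, SE 0.17; edgeR adjusted p = 0.390).

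The genes next in order were Adamts4 and Mmp12, which overlapped, and Mmp11, which did not. Adamts4, a proteoglycanase that inflammation induces, was at 1.26 and 0.604 FPKM in the labelled controls and 1.63, 2.09, 1.51 and 1.13 FPKM in the labelled knockouts (0.69, SE 0.34; edgeR adjusted p = 0.527). Mmp12, the macrophage metalloelastase, was at 0.560 and 1.68 FPKM and 0.590, 1.07, 0.381 and 0.498 FPKM (-0.85, SE 0.43; edgeR adjusted p = 0.539), and without labelled control 2 its log2 fold change was 0.028. Mmp11 was higher in both labelled controls than in any labelled knockout, but labelled knockouts 1 and 2 were well below 3 and 4 (-0.66, SE 0.35; edgeR adjusted p = 0.568). In all, 3 of the 43 (6.98%) had no overlap, Mmp3 higher and Adamts6 and Mmp11 lower, where 21.7% of all genes had none (11.4% higher and 10.3% lower). Summed clock genes were at 670 to 1208 CPM in the labelled controls and 400 to 448 CPM in the labelled knockouts, with 6 of 12 called lower. Summed heat shock and immediate early genes were at 1034 to 1512 and 3627 to 6229 CPM, with 3 of 12 called higher. Both lists were mixed in direction: 3 of 12 clock genes had a positive log2 fold change, and 4 of 12 heat shock and immediate early genes a negative one. Nfil3, of the clock list, was at 6.96 and 1.75 FPKM in the labelled controls and 32.7, 33.1, 34.5 and 30.9 FPKM in the labelled knockouts. Junb, an immediate early gene, was at 31.6 and 42.2 FPKM and 22.1, 18.3, 28.0 and 22.7 FPKM. The part of either list in the values of the family genes was not tested.

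The difference of the labelled knockout effects, left-over wall minus flush, was tested over all 14 libraries. None of 43 genes of the families was called by edgeR, where 0.256% of all 21464 genes were, and 5 had an unadjusted p under 0.05 (11.6%, where 12.8% of all genes did). The smallest p was that of Adamts15, lower in the flush knockouts and at 9.82 and 5.10 FPKM in the labelled controls and 9.71, 12.0, 11.4 and 9.77 FPKM in the labelled knockouts of the left-over wall. Its difference was 1.46 (SE 0.43; edgeR adjusted p = 0.180). DESeq2 called it, at 1.49 with an adjusted p of 0.0323, and called no other gene of the families. The next were Adamts17 (1.69, SE 0.65), Mmp11 (-0.95, SE 0.38), Adamts4 (1.53, SE 0.66) and Adamts16 (1.51, SE 0.69), with edgeR adjusted p from 0.285 to 0.374. Adamts17 was at 0.0516, 0.0842, 0.0909 and 0.0428 FPKM in the flush controls and 0.0078, 0.0295, 0.0518 and 0.0238 FPKM in the flush knockouts, and at 0.255 and 0.393 FPKM and 0.459, 0.586, 0.384 and 0.454 FPKM in the labelled controls and knockouts. Adamts16, linked to blood pressure in rats, was at 0.142, 0.258, 0.0643 and 0.143 FPKM and 0.0366, 0.0348, 0.0699 and 0.0750 FPKM in the flush groups, and at 0.410 and 0.630 FPKM and 0.776, 0.769, 0.430 and 0.268 FPKM in the labelled groups. Both genes stood under 1 FPKM in every library, and neither was tested within the flush alone.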

How the data were processed

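RNA was sequenced in 14 libraries, 8 of the flush and 6 of the left-over wall. The authors deposited raw read counts per gene and FPKM values, and also log2 fold changes and adjusted p-values of group comparisons whose tool is not stated. In all 372153 nonzero FPKM values, the deposited FPKM equalled count over gene length and column total (tolerance 0.001). The submitters' processing notes list STAR 2.5, STAR-Fusion, TopHat, edgeR 3.16.5, DESeq2 and HTSeq 0.6.1 but state no role for any of them. Those notes name mm9, but the deposited coordinates are those of GRCm38: all 46 genes of the families started within 5 kb of their GENCODE M21 start. No pair of libraries looked like a duplicate (chi-square per degree of freedom of at least 8.79). Intervals and floors cover counting error only.

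Here the counts of all genes were fitted with edgeR 4.0.16 (limma 3.58.1, R 4.3.3), after filterByExpr (minimum count 10, minimum total 15) and TMM scaling, by the robust two-sided quasi-likelihood F test. Adjusted p-values are Benjamini-Hochberg values across every gene tested, with calls under 0.05. Levels between genes were compared on FPKM only. DESeq2 1.42.0 was an alternative, with other scalings, no filter on low counts, a replicate block, pairs by description number, a fit on 14 libraries and omission of each library. The code was tested on simulated data. The 46 genes, the pathway and marker lists and the settings were chosen with earlier results of these data known. By rule, the genes described were all Timp genes, the 5 most abundant per fraction, and the 5 with the smallest p in each knockout comparison and in their difference. The rule also took up to 10 called genes highest and lowest between the fractions (mean CPM of at least 1 in 1 group, no overlap). Several of these genes are given by range and median, not by library. Genes named besides these were chosen after their values were seen. Repeat numbers in the titles are not known to pair the libraries. Deviations of same-numbered libraries correlated from -0.36 to 0.26 in the flush and at 0.025 and 0.29 in the 2 left-over pairs. No unmatched pairs were set beside them, so these values cannot decide whether the numbers pair the libraries. The description numbers of 3 flush controls recur in 3 libraries labelled left-over knockout, with correlations of -0.02 to 0.26.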

Additional observations from a re-analysis of the deposited data

Results flagged for a closer look

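In 75 groups of 4 libraries tested on FPKM for a library far from the other 3 (25 genes, 3 groups each), 7 stood apart. Chance gives about 1 in 20 for independent groups with normal spread. These groups are not independent, because all 25 genes were measured in the same libraries and were named partly by their values here. That rate is therefore no yardstick for the count. Of the 7, 5 were in flush knockout 1. Mmp23 was at 36.72 FPKM there against 2.543 to 3.579 FPKM in knockouts 2 to 4. Timp1 was at 28.17 FPKM against 5.306 to 6.246, and Mmp3 at 18.33 FPKM against 1.142 to 2.053. Adamts2 was at 4.472 FPKM against 1.469 to 1.585, and Adamts5 at 1.196 FPKM against 0.3298 to 0.3971. That library also had the highest fibroblast and macrophage marker sums of the flush, 3635 and 816 CPM, and their part in these values was not tested. Mmp9 stood apart in flush control 3, at 2.845 FPKM against 0.6233 to 0.9873 FPKM in the other controls. Mmp13 stood apart in labelled knockout 3 of the left-over wall, at 0.9111 FPKM against 0.5476 to 0.5873 FPKM.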

How the results depend on the processing

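Between the fractions the count of called genes of the families was 38, and 29 to 39 under the alternatives; omission of 1 library gave 35 to 39, with 16083 to 17393 over all genes. With the replicate block, which rests on numbers that are not known to pair the libraries, it was 38. Timp2 changed sign with library size only (-0.26). Timp4 was called without flush knockout 1 (0.82, adjusted p = 0.0110), in pairs by description number (0.61, adjusted p = 0.00986) and without the libraries highest in fibroblast markers (0.74, adjusted p = 0.0182). Timp2 was called without labelled knockout 3 (0.20, adjusted p = 0.0347).

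In the flush, DESeq2 called 68 genes in the knockout comparison, no filter gave 14, the fit on 14 libraries 4, and omission of the libraries highest in fibroblast markers 97. Omission of 1 library gave 0 to 20 genes, and of the families 0 to 1, and the replicate block gave 0. Of the families, 3 genes were called without the libraries highest in fibroblast markers and 0 in each other alternative that kept all libraries. In the left-over wall, 162 genes became 436 with DESeq2, 397 with no filter and 2015 with the replicate block, which called 3 genes of the families (Mmp11 -1.37, adjusted p = 0.00462; Mmp9 -0.51 and Adamts10 -0.47, adjusted p = 0.0403 each), and 41 to 260 on omission of 1 library, with 0 of the families. The main fit of the left-over comparison tested 43 genes of the families and 20442 genes in all. Beside 2015 calls over all genes, the 3 family calls of the replicate block therefore set these families little apart. For Mmp12, omission of 1 left-over library gave log2 fold changes of -1.40 to 0.028, the last without labelled control 2. For the difference between the fractions' labelled effects, 55 genes became 438 with DESeq2 and 19 with the replicate block, and 7 to 131 on omission of 1 library; DESeq2 called 1 gene of the families and each omission 0. The cause of these changes was not tested. Mmp7, Mmp1b and Mmp25 had too few counts to test at this depth.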
